A study of Mus musculus with 12 samples.

Results

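The genes described here mark the blood vessels of the pancreatic islet: 26 genes of endothelial cells, which line the vessels, and 8 genes of mural cells, the pericytes and smooth muscle cells that wrap them. They were chosen by gene symbol, with earlier results of these data known. Of the 34 genes, 31 were measured among 14089 genes (24 endothelial and 7 mural). Erg, Cldn5 and Cnn1 are not analysed here. RNA was sequenced from islets of C57BL/6J mice in 12 libraries, 3 in each of 4 groups, all collected after 24 hours. Islets were left with vehicle, or received 10 µM ML351, or received cytokines, or received both (called the combination). The cytokines were IL-1β at 5 ng/ml, TNF-α at 10 ng/ml and IFN-γ at 100 ng/ml. The small molecule ML351 blocks 12/15-lipoxygenase, which adds oxygen to polyunsaturated fatty acids. The question was how the cytokine effect on these genes compares without and with ML351.

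Islets are supplied by dense capillaries whose endothelium is fenestrated, that is, pierced by small pores closed by diaphragms. β cells secrete vascular endothelial growth factor A (VEGF-A), which acts on the receptor encoded by Kdr and maintains these capillaries, while angiopoietins act through the receptor encoded by Tek. Pericytes share the basement membrane of the capillaries and are recruited by platelet-derived growth factor acting on the receptor encoded by Pdgfrb. Isolated islets in culture have no blood flow, and how far their endothelial and mural cells persist in culture was not measured here.

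Library totals ran from 20208286 to 27193026 counts. Values are CPM, counts relative to the library total, with totals scaled by TMM (trimmed mean of M values, a factor that evens out composition), and 1 count was worth 0.0368 to 0.0495 CPM. In the lists of values below, vehicle libraries come in the order of replicates 1, 2 and 4, ML351 libraries as 1, 2 and 3, cytokine libraries as 1, 3 and 4, and combination libraries as 1, 2 and 4. ML351 replicate 1 and cytokine replicate 1 lay at the ends of the second principal component, and counts of genes called are also given without them. The summed CPM of 12 β cell markers was between 257000 and 380000 in every library, a sum carried by the insulin genes Ins1 and Ins2, and no endothelial or mural gene was at 0 in all libraries. Whether the replicate libraries stem from different animals is not stated in the labels, and the p-values therefore reflect only library-to-library spread, which may be technical.

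With vehicle, the endothelial genes summed to 178, 167 and 185 CPM, and with ML351 to 190, 192 and 200 CPM. With cytokines the sums were 41.9, 44 and 61.3 CPM, and with the combination 34.6, 33.6 and 32.4 CPM. All 6 libraries with cytokines lay below all 6 without, and the 3 combination libraries lay below the 3 cytokine libraries. The cytokine mean of 49 ± 10.6 CPM was 27.8% of the vehicle mean of 177 ± 9.23 CPM, and the combination mean of 33.5 ± 1.05 CPM was 19% of it (SD, n = 3 each). Markers of some other cell types shifted with cytokines as well. Of 12 β cell markers 10 were called lower and 0 higher by edgeR (median log2 fold change -2.36). Of 11 ductal markers 7 were called higher and 2 lower, beside 37.2% of all genes lower and 35.3% higher. The ductal sum was 1240 ± 111 CPM with vehicle and 3950 ± 402 CPM with cytokines. Of 8 Schwann cell markers 2 were called lower and 2 higher, and of 15 acinar (exocrine) markers 1 lower and 0 higher. The part of these cell types in the vascular values was not tested. In RNA of whole islets, fewer cells of a type and less RNA per cell cannot be told apart.

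**Figure D1:**
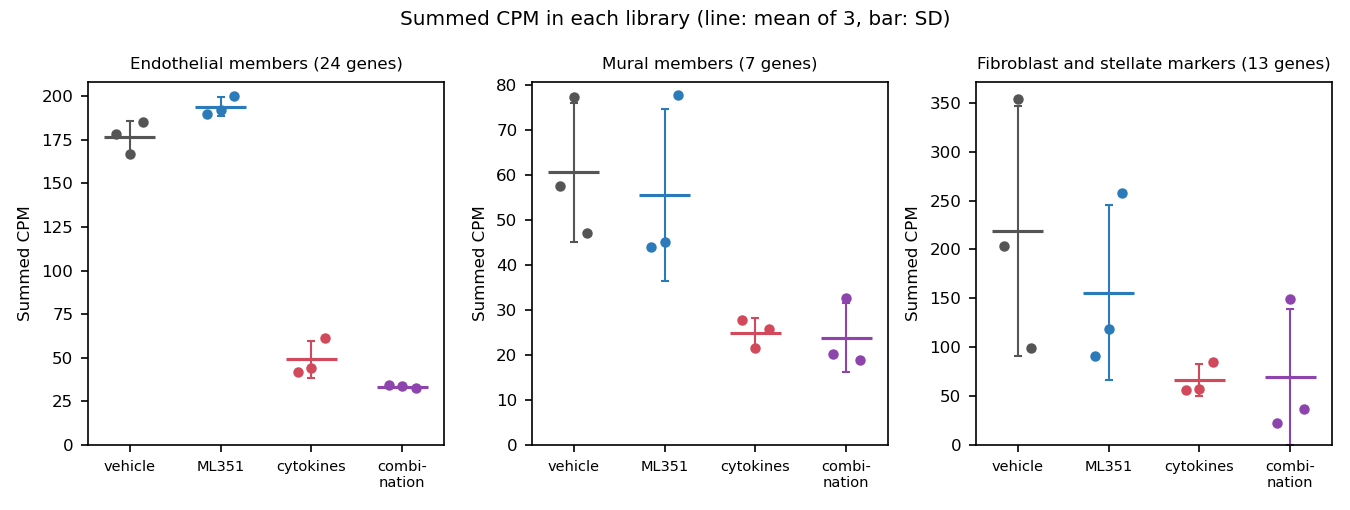
Summed CPM of 24 endothelial genes, 7 mural genes and 13 fibroblast and stellate markers in each library, by group; points are libraries, lines the mean of 3 and bars the SD. Endothelial sums lie between 167 and 200 without cytokines and between 32.4 and 61.3 with them, while mural and fibroblast sums vary more between libraries of a group.

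The mural genes summed to 57.5, 77.3 and 47 CPM with vehicle and to 44, 45.1 and 77.7 CPM with ML351. They summed to 27.7, 21.5 and 25.7 CPM with cytokines and to 20.2, 32.6 and 18.8 CPM with the combination. Much of each sum was Pdgfrb, at a mean of 31.1 of 60.6 CPM with vehicle and 17.1 of 25 CPM with cytokines. With the combination it was 17.2 of 23.9 CPM. In the sums, the groups with cytokines lay below the groups without. However, vehicle replicate 2, ML351 replicate 3 and combination replicate 2 stood above the other libraries of their groups. The same libraries were the highest of their groups for 13 fibroblast and stellate markers, at 354, 258 and 149 CPM. The fibroblast sum was 219 ± 128 CPM with vehicle and 66.4 ± 16.3 CPM with cytokines, and its part in the mural values was not tested.

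Among themselves the genes differed widely in level. Per kilobase of exon, vehicle levels were highest for Esm1 (9.83 ± 2.11 CPM per kb, SD, n = 3) and Plvap (8.68 ± 1.25 CPM per kb), whose ranges overlapped. Esam (5.99 CPM per kb), Pdgfrb (5.68 CPM per kb) and Eng (5.51 CPM per kb) followed, with Esam overlapping Pdgfrb and Pdgfrb overlapping Eng. Most genes lower in the order overlapped their neighbours, and Vwf was last at 0.116 ± 0.0153 CPM per kb.

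Promoter sequence was available for 16 of the 31 measured genes, as windows from 250 bases before to 50 bases after a RefSeq start site (GRCm38.p6). The windows were searched on both strands for AGGAAG and CGGAAG, cores bound by ETS factors, which are regulators of endothelial genes, for TTCNNNGAA, bound by STAT factors, and for the CArG box, bound by SRF in smooth muscle genes. The motifs do not overlap one another in the stretches shown. The stretches of Emcn, Tie1, Flt1 and Eng are shown because each of these endothelial genes has a single window, which holds AGGAAG more than once, and that of Myl9 because it was the mural window that held a CArG box. Each is written 5′ to 3′ in the direction of the gene and ends before any annotated exon, and capitals mark the motifs on either strand.
Emcn, chr3:137340828-137341066, plus strand: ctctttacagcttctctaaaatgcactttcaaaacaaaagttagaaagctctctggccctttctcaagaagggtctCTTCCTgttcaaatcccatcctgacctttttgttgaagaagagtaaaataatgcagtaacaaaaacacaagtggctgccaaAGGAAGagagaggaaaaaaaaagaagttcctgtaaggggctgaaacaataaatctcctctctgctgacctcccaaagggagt
Tie1, chr4:118490062-118490099, minus strand: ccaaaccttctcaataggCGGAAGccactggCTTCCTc
Flt1, chr5:147726012-147726261, minus strand: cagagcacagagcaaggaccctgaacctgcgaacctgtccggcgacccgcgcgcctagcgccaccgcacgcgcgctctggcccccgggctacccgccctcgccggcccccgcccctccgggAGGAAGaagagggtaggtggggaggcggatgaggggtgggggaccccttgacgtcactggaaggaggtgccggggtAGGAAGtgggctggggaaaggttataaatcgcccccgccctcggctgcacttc
Eng, chr2:32646345-32646594, plus strand: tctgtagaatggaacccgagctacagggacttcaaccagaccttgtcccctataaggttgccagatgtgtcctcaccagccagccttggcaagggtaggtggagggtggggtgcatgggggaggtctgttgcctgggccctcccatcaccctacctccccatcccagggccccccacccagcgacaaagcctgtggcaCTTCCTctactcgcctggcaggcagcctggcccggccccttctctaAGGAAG
Myl9, chr2:156775214-156775419, plus strand: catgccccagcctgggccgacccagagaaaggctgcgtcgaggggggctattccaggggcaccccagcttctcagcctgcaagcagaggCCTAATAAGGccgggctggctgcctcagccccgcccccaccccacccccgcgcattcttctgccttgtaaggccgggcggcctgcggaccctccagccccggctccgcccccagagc

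AGGAAG was found in 8 of 13 windows of endothelial genes (61.5%, in 7 of 11 genes) and in 0 of 5 mural windows, beside 35.4% of all 32851 windows and 33.1% of those of genes in the count table. Besides the 4 genes shown, Cd34, Robo4 and Egfl7 hold it. CGGAAG was in 1 of the 13 endothelial windows, that of Tie1, beside 16.9% of all windows and 28.4% of those of genes in the count table. TTCNNNGAA was in 0 of the 13 and 0 of the 5, beside 8.3% of all windows and 7.05% of those of genes in the count table. The CArG box was in 1 of 5 mural windows, beside 1.63% of all and 1.31% of those of genes in the count table. The window of Kdr held none of these motifs. A match is a description of letters, and binding was not measured.

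In cytokines against vehicle, 31 of 31 genes passed the test at an edgeR adjusted p of 0.05, 30 lower and 1 higher. Among all genes 72.5% passed, 37.2% lower and 35.3% higher. The log2 fold change was below 0 for 30 of 31 genes, beside 51.1% of all genes, and its median was -1.76 over the 31 genes and -0.02 over all. The CPM of the groups did not overlap for 30 of 31 genes, all but Tagln, beside 76.6% of all genes. Of the 31 calls, 22 were kept under every alternative run, and 24 genes were called without ML351 replicate 1 and cytokine replicate 1. Leaving out 1 library gave between 23 calls (without cytokine replicate 3) and 31.

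**Figure D2:**
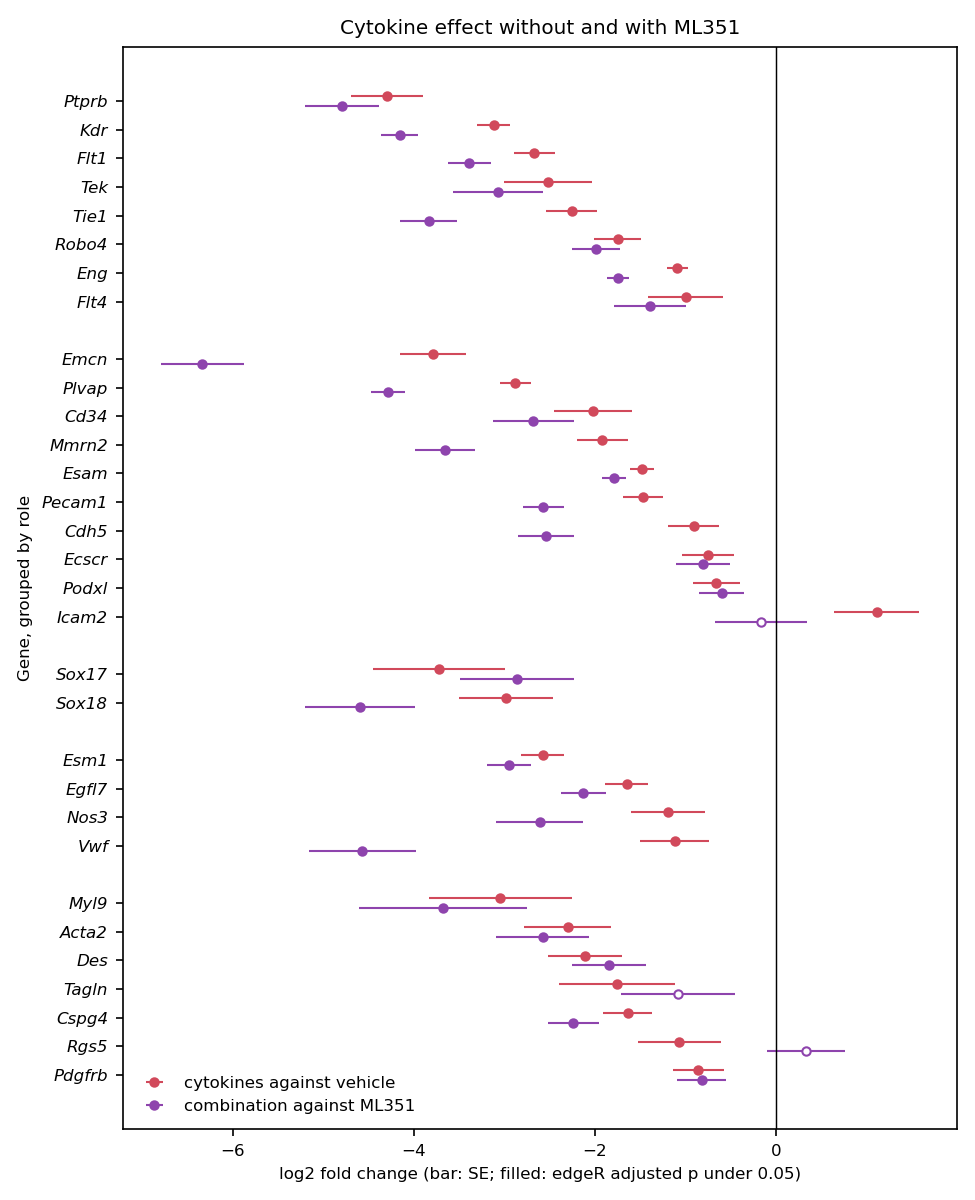
Log2 fold change of each gene in cytokines against vehicle and in combination against ML351, grouped by role; bars are the SE and filled points have an edgeR adjusted p under 0.05. Most points lie left of 0, at medians of -1.76 and -2.58, and Icam2 is the gene called higher in cytokines against vehicle.

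All 8 endothelial receptors and receptor partners fell with cytokines, at a median log2 fold change of -2.39. Ptprb (chromosome 10, 116275523 to 116389535, GRCm38, as all positions here) encodes a phosphatase that restrains Tek signalling. It stood at 3.44, 2.94 and 2.99 CPM with vehicle, 5.01, 3.02 and 3.19 CPM with ML351, 0.202, 0.147 and 0.101 CPM with cytokines, and 0.147, 0.0442 and 0.207 CPM with the combination. Each library with cytokines lay below each without, at 1 to 5 counts per library. Ptprb showed the largest fall of the 31 genes (log2 fold change -4.30, SE 0.40, edgeR adjusted p = 3.35e-08).

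Kdr (chromosome 5, 75932827 to 75978458), the main VEGF-A receptor, was at 20.2, 17.8 and 23.3 CPM with vehicle and 22.8, 22.1 and 20.5 CPM with ML351. It was at 2.26, 2.11 and 2.67 CPM with cytokines and at 1.32, 0.707 and 1.66 CPM with the combination. The 4 groups fell into a high pair that overlapped and 2 low groups that did not overlap each other. Its fall with cytokines was 8.7-fold (log2 fold change -3.12, SE 0.18, edgeR adjusted p = 6.68e-11). Other VEGF receptors fell too: Flt1, which binds VEGF-A as a decoy, by 2.67 on the log2 scale, and Flt4, the VEGF-C receptor, by 1.00.

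Flt4 (chromosome 11, 49609263 to 49652739) was the least changed receptor. It was at 3.01, 3.5 and 2.76 CPM with vehicle, 4.63, 3.57 and 3.19 CPM with ML351, 0.968, 1.18 and 2.52 CPM with cytokines, and 1.71, 2.08 and 0.518 CPM with the combination. Cytokine replicate 4 lay close to the vehicle range (SE 0.41, edgeR adjusted p = 0.0372). Its call was lost without cytokine replicate 1 or 3 or vehicle replicate 1, 2 or 4, at edgeR adjusted p between 0.0532 and 0.146.

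Eng (chromosome 2, 32646595 to 32682669) encodes endoglin, a co-receptor for BMP and TGF-β ligands. It was at 23.9, 20.6 and 22.5 CPM with vehicle, 20.7, 21.5 and 24.6 CPM with ML351, 9.55, 10.6 and 11.2 CPM with cytokines, and 7.09, 7.29 and 5.44 CPM with the combination. Its fall with cytokines was small among the receptors but even across libraries (log2 fold change -1.09, SE 0.12, edgeR adjusted p = 2.03e-07). Tek, the angiopoietin receptor gene, fell by 2.52, its relative Tie1 by 2.26, and Robo4, a receptor that stabilises vessels, by 1.75 on the log2 scale. Eng shares 61 exon bases with Fpgs, and without strand such reads cannot be told apart. The same holds for 148 bases of Cd34 (with Gm16897), 108 of Tagln (with Pcsk7), 64 of Egfl7 (with Agpat2) and 62 of Ecscr (with 1700066B19Rik).

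Of 10 junction and surface genes, 9 fell and 1 rose with cytokines (median log2 fold change -1.47). Emcn (chromosome 3, 137341067 to 137432185) encodes endomucin, a sialomucin of capillary and venous endothelium. It was at 7.64, 6.4 and 8.93 CPM with vehicle, 9.52, 9.33 and 9.65 CPM with ML351, 0.202, 0.392 and 1.11 CPM with cytokines, and 0.0489, 0.177 and 0.104 CPM with the combination. All libraries with cytokines lay far below the others (log2 fold change -3.79, SE 0.36, edgeR adjusted p = 1.87e-07).

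Plvap (chromosome 8, 71497765 to 71511752) encodes the protein of the diaphragms that close fenestrae. It was at 14.9, 17.1 and 19.8 CPM with vehicle, 19.9, 24.2 and 20.2 CPM with ML351, 1.94, 2.11 and 3.02 CPM with cytokines, and 1.27, 0.883 and 1.14 CPM with the combination. No library of the combination reached the lowest cytokine library, and no ML351 library was below the highest vehicle library. The fall with cytokines was 7.36-fold (log2 fold change -2.88, SE 0.17, edgeR adjusted p = 9.31e-11).

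Podxl (chromosome 6, 31519488 to 31563981) encodes podocalyxin, another sialomucin, and was the least changed surface gene. It was at 5.01, 3.55 and 3.41 CPM with vehicle, 4.12, 4.92 and 5.28 CPM with ML351, 2.5, 1.96 and 3.12 CPM with cytokines, and 3.27, 4.11 and 2.02 CPM with the combination. The cytokine libraries lay just below the vehicle libraries (log2 fold change -0.66, SE 0.26, edgeR adjusted p = 0.0301). That call was lost without cytokine replicate 1 (edgeR adjusted p = 0.0699), cytokine replicate 3 (0.12) or vehicle replicate 1 (0.162).

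Cdh5 (chromosome 8, 104101625 to 104144511) encodes VE-cadherin, the adhesion molecule of endothelial junctions. It was at 2.89, 2.06 and 3.22 CPM with vehicle, 4.16, 2.26 and 3.46 CPM with ML351, 1.49, 1.28 and 1.56 CPM with cytokines, and 0.489, 0.53 and 0.674 CPM with the combination. Here too the cytokine libraries formed a step between vehicle and combination (cytokines against vehicle -0.91, SE 0.28, edgeR adjusted p = 0.00779).

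Mmrn2 (chromosome 14, 34375465 to 34404287) encodes a matrix protein made by endothelium. It was at 3.56, 3.88 and 3.27 CPM with vehicle, 3.91, 4.12 and 3.82 CPM with ML351, 0.605, 1.03 and 1.21 CPM with cytokines, and 0.244, 0.221 and 0.466 CPM with the combination. It showed the same step (cytokines against vehicle -1.92, SE 0.28, edgeR adjusted p = 9.01e-06). The adhesion molecule genes Pecam1 and Esam fell by 1.47 and 1.48 on the log2 scale, and Cd34, a sialomucin shared with blood progenitors, by 2.02. Ecscr, which encodes an endothelial surface protein, fell by 0.75, and that call was lost without cytokine replicate 1 or 3 or vehicle replicate 2 or 4, at edgeR adjusted p between 0.0661 and 0.151.

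Icam2 (chromosome 11, 106377656 to 106388075), an adhesion molecule of endothelium and also of leukocytes and platelets, was the gene that rose. It was at 0.255, 0.794 and 0.552 CPM with vehicle, 0.382, 0.328 and 0.866 CPM with ML351, 1.17, 0.981 and 1.31 CPM with cytokines, and 0.342, 0.442 and 0.622 CPM with the combination. The cytokine libraries lay above all others, at 20 to 29 counts per library (log2 fold change 1.11, SE 0.47, edgeR adjusted p = 0.0434). This call was lost without cytokine replicate 1, 3 or 4 or vehicle replicate 1 or 4 (edgeR adjusted p 0.0524 to 0.177), with scaling by library totals (0.0601) or by upper quartile (0.0716), and in DESeq2 (adjusted p = 0.0567). Summed macrophage markers (14 genes) were at 227 to 232 CPM with vehicle, 355 to 373 CPM with cytokines and 315 to 322 CPM with the combination. Their part in the Icam2 values was not tested.

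**Figure D3:**
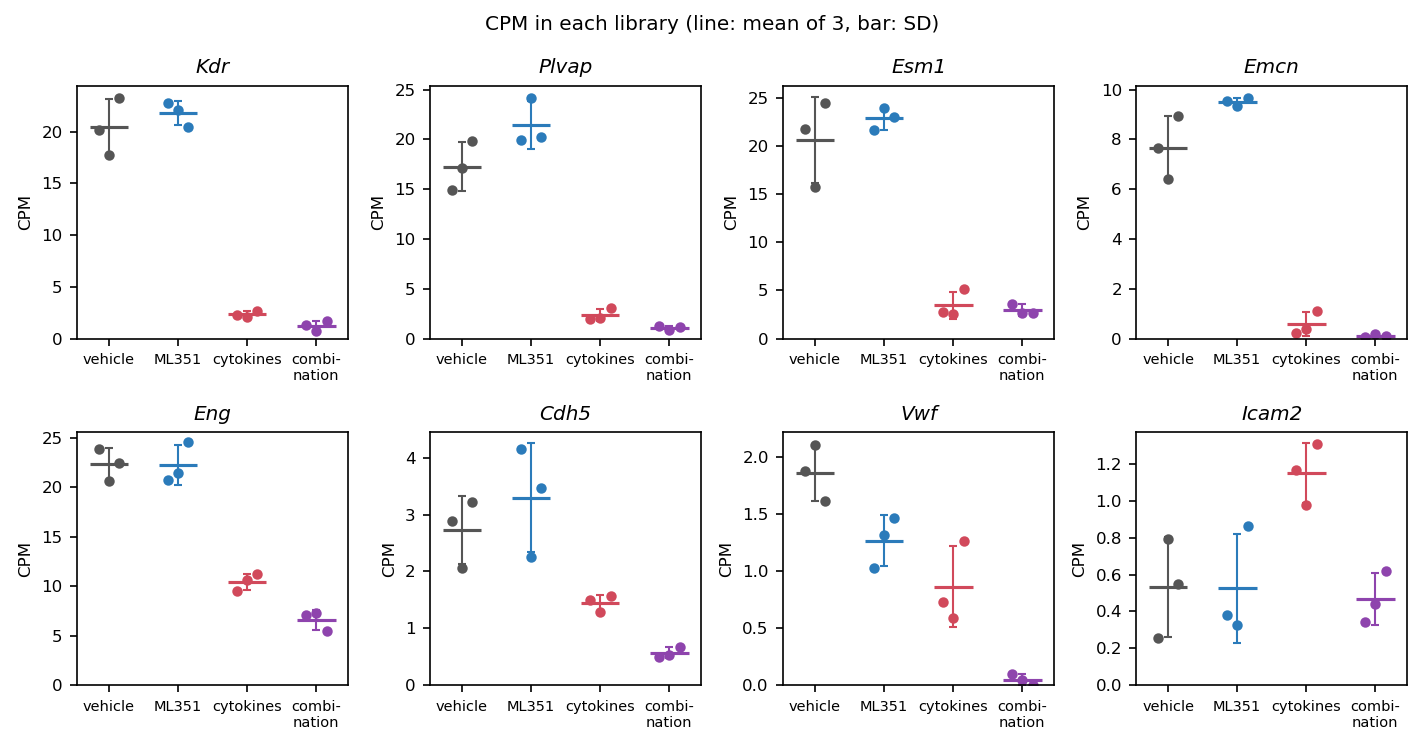
CPM of Kdr, Plvap, Esm1, Emcn, Eng, Cdh5, Vwf and Icam2 in each of the 12 libraries by group; points are libraries, lines the mean of 3 and bars the SD, and each axis starts at 0. Vwf and Cdh5 step down from cytokines to the combination, and Icam2 is highest in the 3 cytokine libraries.

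Both measured endothelial transcription factors, Sox17 and Sox18 of the SoxF family, which takes part in arterial and lymphatic specification, fell with cytokines. Sox17 (chromosome 1, 4490931 to 4497354) was at 1.23, 0.374 and 1.06 CPM with vehicle, 0.807, 1.02 and 1.42 CPM with ML351, 0, 0.0491 and 0.151 CPM with cytokines, and 0.0977, 0.132 and 0.207 CPM with the combination. Each library with cytokines held 0 to 4 counts (log2 fold change -3.72, SE 0.73, edgeR adjusted p = 0.00021). Sox18 (chromosome 2, 181669836 to 181671640) was at 1.78, 2.15 and 1.66 CPM with vehicle, 2.17, 1.75 and 2.24 CPM with ML351, 0.202, 0.245 and 0.252 CPM with cytokines, and 0, 0.221 and 0 CPM with the combination. The cytokine libraries had 5 counts each (a fold change of -2.98 on the log2 scale, SE 0.52, edgeR adjusted p = 5.89e-05), and a combination library at 0 counts is below the detection of this depth rather than known to lack the transcript.

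The 4 secreted proteins and enzymes fell with cytokines at a median log2 fold change of -1.42. Esm1 (chromosome 13, 113209659 to 113218098) encodes endocan, a proteoglycan made by VEGF-stimulated endothelium. It was at 21.7, 15.7 and 24.4 CPM with vehicle, 21.6, 23.9 and 23 CPM with ML351, 2.78, 2.55 and 5.09 CPM with cytokines, and 3.62, 2.61 and 2.64 CPM with the combination. The 2 groups with cytokines overlapped each other and lay far below the rest (log2 fold change -2.58, SE 0.24, edgeR adjusted p = 4.51e-07).

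Egfl7 (chromosome 2, 26580014 to 26593120) encodes a secreted protein of endothelium, and its intron holds the microRNA gene Mir126a. It was at 12.6, 12 and 12.2 CPM with vehicle, 11.1, 10.6 and 13.1 CPM with ML351, 2.94, 3.48 and 5.34 CPM with cytokines, and 2.15, 1.9 and 3.94 CPM with the combination. No library with cytokines reached those without (log2 fold change -1.65, SE 0.24, edgeR adjusted p = 1.79e-05). Nos3, the endothelial nitric oxide synthase gene, fell by 1.19 on the log2 scale, a call lost without cytokine replicate 1 (edgeR adjusted p = 0.0737).

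Vwf (chromosome 6, 125546774 to 125686679) encodes von Willebrand factor, which endothelium stores in Weibel-Palade bodies for release in coagulation. It was at 1.87, 2.1 and 1.61 CPM with vehicle, 1.02, 1.31 and 1.46 CPM with ML351, 0.726, 0.589 and 1.26 CPM with cytokines, and 0.0977, 0.0442 and 0 CPM with the combination. The combination stood apart from all other groups at 2, 1 and 0 counts. Its change in cytokines against vehicle was the smallest of the 4 (log2 fold change -1.12, SE 0.38, edgeR adjusted p = 0.0151), and the call was lost without cytokine replicate 1 (0.0546), cytokine replicate 3 (0.0674) or vehicle replicate 2 (0.0509).

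All 7 mural genes fell with cytokines, at a median log2 fold change of -1.76. Myl9 (chromosome 2, 156775420 to 156781658), a myosin light chain of smooth muscle whose promoter is shown above, was at 1.99, 3.32 and 1.1 CPM with vehicle and 0.807, 0.838 and 2.2 CPM with ML351. It was at 0, 0.294 and 0.504 CPM with cytokines and 0.0977, 0.177 and 0 CPM with the combination. Libraries without cytokines varied widely, yet stayed above those with them (log2 fold change -3.05, SE 0.79, edgeR adjusted p = 0.00333).

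Acta2 (chromosome 19, 34241090 to 34255590), the smooth muscle actin gene, was at 8.91, 9.62 and 5.85 CPM with vehicle, 5.06, 3.86 and 9.61 CPM with ML351, 2.38, 1.13 and 1.36 CPM with cytokines, and 1.17, 1.55 and 0.311 CPM with the combination. The lowest library without cytokines, ML351 replicate 2, was above the highest with them (log2 fold change -2.30, SE 0.48, edgeR adjusted p = 0.00131). Pdgfrb, the receptor for platelet-derived growth factor B, changed least. It was at 27.8, 39.9 and 25.7 CPM with vehicle, 24.9, 25.8 and 40.6 CPM with ML351, 18.9, 14.9 and 17.5 CPM with cytokines, and 14.6, 23.3 and 13.8 CPM with the combination. Its fall was 1.82-fold (log2 fold change -0.86, SE 0.28, edgeR adjusted p = 0.0184), a call lost without cytokine replicate 3 (0.0629) or vehicle replicate 2 (0.0602).

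Des, the desmin gene, fell by 2.11, Cspg4, which encodes the pericyte proteoglycan NG2, by 1.64, Tagln, an actin-binding gene of smooth muscle, by 1.76 and Rgs5, a pericyte regulator of G protein signalling, by 1.07 on the log2 scale. The Tagln call was lost without cytokine replicate 1 or 3 or vehicle replicate 1 or 2, and with only the 2 groups in the fit, at edgeR adjusted p between 0.0632 and 0.0934. That of Rgs5 was lost without cytokine replicate 3 or 4, vehicle replicate 1 or 2, ML351 replicate 1, 2 or 3 or combination replicate 4, at edgeR adjusted p between 0.0503 and 0.158, and in DESeq2 (adjusted p = 0.0523).

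The falls were not of equal size, and this was described, with no test, by setting each endothelial gene against the median log2 CPM (prior count 2) of the 24 genes in the same library. That median was 2.19, 1.99 and 2.06 with vehicle and 0.376, 0.251 and 1.1 with cytokines. From vehicle to cytokines, Emcn (-2.30), Ptprb (-2.27), Kdr (-1.57) and Plvap (-1.34) moved down most relative to the median on the log2 scale. Flt1 (-1.13), Sox17 (-1.13), Sox18 (-1.09) and Esm1 (-1.08) followed. Esam (0.02) and Pecam1 (0.06) kept their distance from it, so their difference was near that of the median itself. Nos3 (0.35), Vwf (0.41), Eng (0.42), Flt4 (0.44), Cdh5 (0.65), Ecscr (0.81), Podxl (0.86) and Icam2 (2.59) moved up relative to it. For Nos3, Eng, Flt4 and Cdh5 the vehicle and cytokine libraries overlapped on this measure. From cytokines to the combination the largest move was that of Vwf, at -1.97 relative to the median. With Pecam1 and Cdh5 as the reference in place of the median, the differences between vehicle and cytokines all shifted down by the same amount. Podxl came to 0.51 and Icam2 to 2.24, while Eng, at 0.42 against the median, was left with almost no move. Cdh5 is itself part of that reference.

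**Figure D4:**
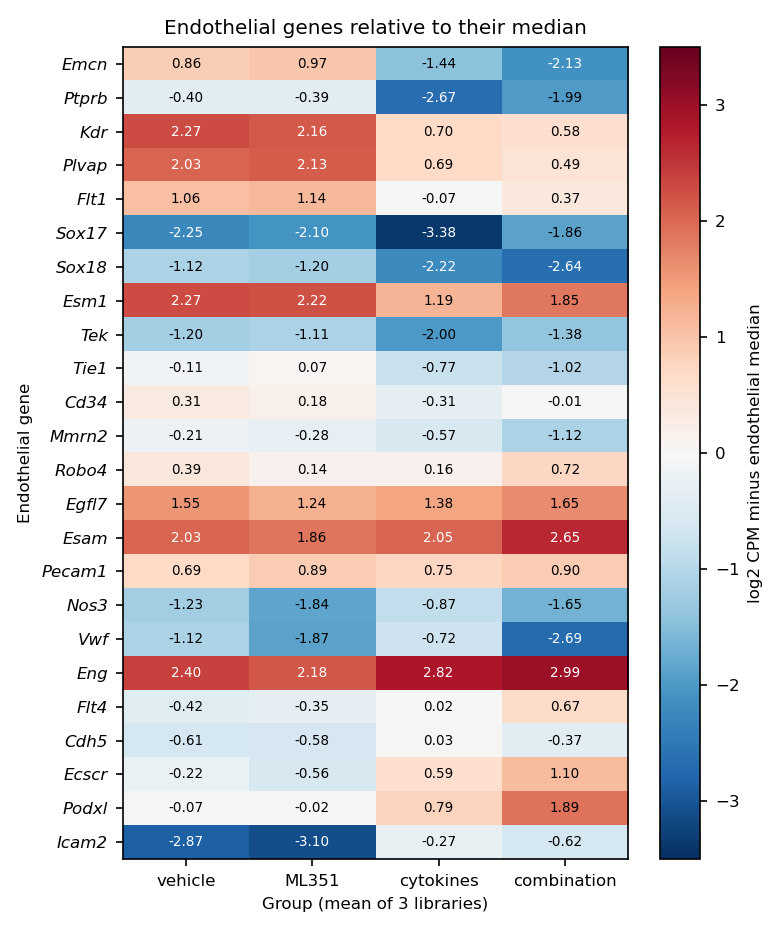
Log2 CPM of each of 24 endothelial genes minus the median over those genes in the same library, as the mean of 3 libraries per group; genes are ordered by the difference between cytokines and vehicle. Emcn drops from 0.86 to -1.44 relative to the median and Icam2 climbs from -2.87 to -0.27.

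The same effect was then measured in the presence of ML351. In combination against ML351, 28 of 31 genes were called lower and 0 higher, beside 36.4% of all genes lower, 35.2% higher and 71.5% in either direction (edgeR). The log2 fold change was below 0 for 30 of 31, beside 50.8% of all genes, with a median of -2.58 over the 31 genes and -0.02 over all genes. The CPM of the groups did not overlap for 29 of 31, beside 74.0% of all genes. By role, 8 of 8 receptors, 9 of 10 junction and surface genes, 2 of 2 transcription factors, 4 of 4 secreted proteins and enzymes and 5 of 7 mural genes were called lower. The 3 genes not called were Icam2 (log2 fold change -0.17, edgeR adjusted p = 0.777), Rgs5 (0.33, 0.507) and Tagln (-1.08, 0.143). Tagln passed with only the 2 groups in the fit (0.0362).

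The largest falls there were those of Emcn (1, 4 and 2 counts in the combination libraries, log2 fold change -6.34, SE 0.46, edgeR adjusted p = 8.33e-09), Ptprb (-4.80), Sox18 (-4.60), Vwf (-4.57), Plvap (-4.29) and Kdr (-4.16). Vwf had 3 counts in the combination libraries together and 97 in the ML351 libraries, and its combination level was 3.79% of the ML351 level (0.767% to 11.4%, 95% interval for counting error only). The smallest calls were Podxl (-0.60), Ecscr (-0.81) and Pdgfrb (-0.82). Podxl lost its call without ML351 replicate 2 or 3 or combination replicate 1 or 4 (edgeR adjusted p 0.0665 to 0.193), Ecscr without combination replicate 1 or 4 (0.0694 and 0.106), and Pdgfrb without ML351 replicate 3 or combination replicate 1 or 4 (0.0759 to 0.0879).

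The 2 cytokine effects share no library. Over the 31 genes their log2 fold changes had a Pearson r of 0.765 and a Spearman rho of 0.801, given as a description since the genes share libraries and model. Of the 31, 25 had a lower value with ML351 present than without, beside 7259 of all 14089 genes. These were 22 of 24 endothelial genes and 3 of 7 mural genes. The difference of the 2 effects (the interaction) had a median log2 value of -0.69 over the endothelial genes, 0.05 over the mural genes and -0.01 over all genes. None of the 31 passed the edgeR test of this difference, beside 0.0071% of all genes, and 12 had an unadjusted p under 0.05, beside 8.23% of all genes. DESeq2 called 0 as well. The smallest p-values were those of Plvap (-1.41, SE 0.26, edgeR adjusted p = 0.182), Vwf (-3.45, SE 0.75, adjusted p = 0.239) and Mmrn2 (-1.74, SE 0.44, adjusted p = 0.333).

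ML351 alone gave no call among these genes. In ML351 against vehicle 0 of 31 were called by edgeR and 0 by DESeq2, beside 0.0355% of all genes (0.0213% lower and 0.0142% higher), and 1 of 31 had an unadjusted p under 0.05, beside 8.98% of all genes. That gene was Plvap (log2 fold change 0.32, SE 0.14, edgeR adjusted p = 0.528). Values ran from -0.73 (Myl9) to 0.42 (Tie1 and Pecam1). Of the endothelial genes 17 of 24 were above 0 and of the mural genes 7 of 7 were below it, beside 7340 above and 6738 below of all 14089 genes. Groups did not overlap for 7 of 24 endothelial and 0 of 7 mural genes, beside 15.9% of all genes.

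ML351 added to cytokines was accompanied by lower levels of 6 endothelial genes. In combination against cytokines 6 of 31 were called lower and 0 higher, beside 0.788% of all genes lower and 1.43% in either direction (edgeR). Vwf fell by 4.00 on the log2 scale (SE 0.62, edgeR adjusted p = 0.00865), at 3 counts in the combination and 55 with cytokines, which put it at 5.69% of the cytokine level (1.14% to 17.5%, 95% interval for counting error only). Eng (-0.66, adjusted p = 0.0197), Plvap (-1.09, 0.0274), Mmrn2 (-1.60, 0.0404), Cdh5 (-1.35, 0.0492) and Kdr (-0.95, 0.0495) were the others by edgeR. For each of the 6 the 3 combination libraries lay below the 3 cytokine libraries. Groups did not overlap for 11 of the 31 genes, beside 20.4% of all genes.

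The endothelial genes as a whole had a median of -0.61 in this comparison and 22 of 24 lay below 0, beside a median of 0.00 and 49% of all genes below 0. The mural genes had a median of 0.02. Emcn (-2.24) and Nos3 (-1.83) did not pass the test (edgeR adjusted p = 0.0974 and 0.0831), nor did Tie1 (-1.15, 0.118).

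**Figure D5:**
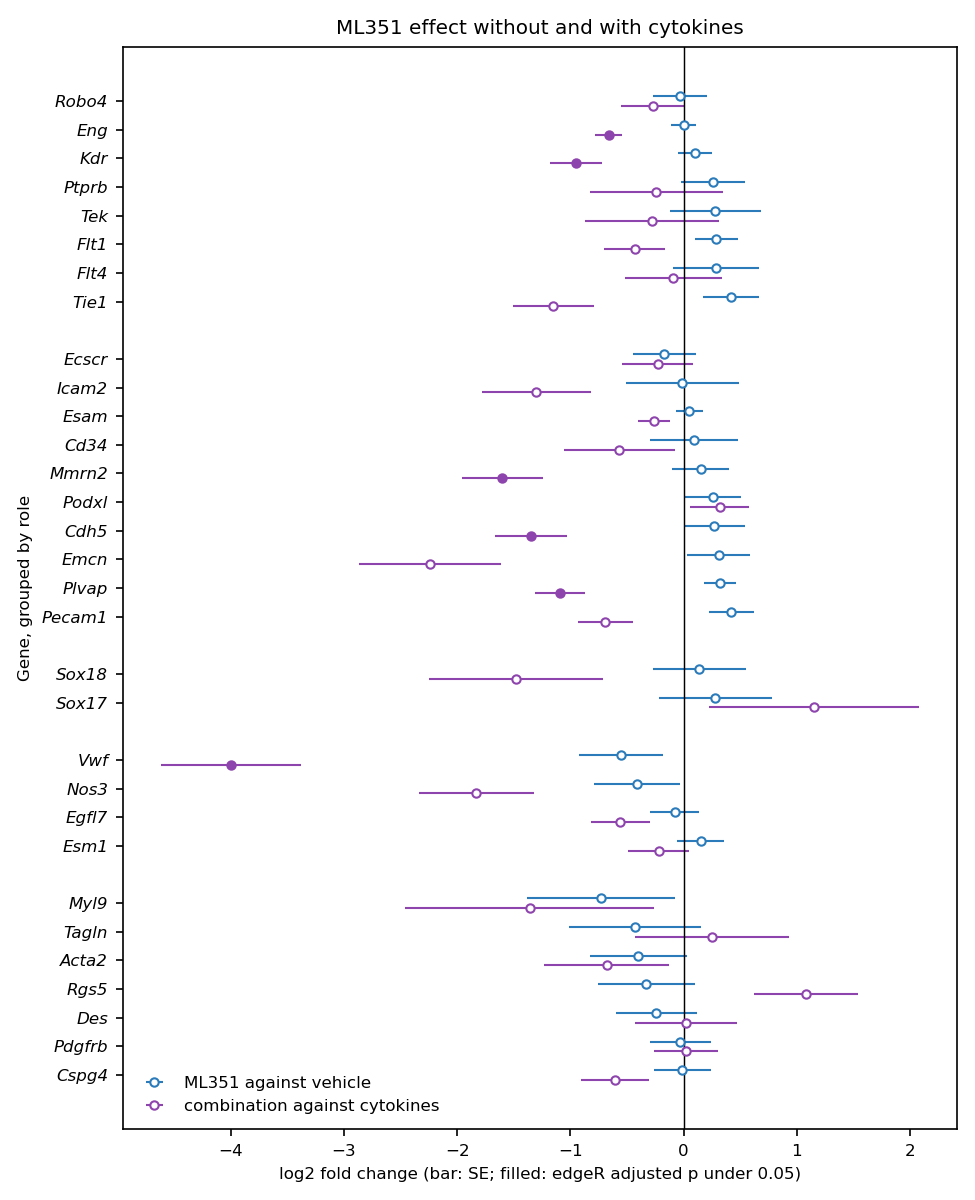
Log2 fold change of each gene in ML351 against vehicle and in combination against cytokines, grouped by role; bars are the SE and filled points have an edgeR adjusted p under 0.05. Without cytokines no point is filled, and with cytokines 6 points left of 0 are filled, Vwf at -4.00 farthest out.

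The 15 acinar markers, from enzyme-secreting exocrine cells, were all above 0 in the same comparison (median 1.18), 1 of them called higher, with summed levels of 48.7, 621 and 875 CPM with cytokines and 1330, 1550 and 1050 CPM with the combination. Among macrophage markers 2 of 14 were called lower, and among fibroblast markers 0 of 13. Their part in the 6 calls was not tested. Of the 6 calls, 1 remained without cytokine replicate 4, 2 without cytokine replicate 3 or combination replicate 2, and 3 without combination replicate 1 or vehicle replicate 1, 2 or 4. Leaving out ML351 replicate 1 and cytokine replicate 1 together kept 4 of the 6 and added Emcn. With scaling by library totals 2 remained, with only the 2 groups in the fit 1, and DESeq2 called the 6 and also Emcn and Nos3. Vwf was called in each of the 21 alternatives (1 of them, the fit with no filter, equals the reported fit since the filter removed no gene), while Kdr was lost in 15, Cdh5 in 14, Mmrn2 in 11, Eng in 5 and Plvap in 3.

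In combination against vehicle 28 of 31 genes were called lower, beside 36.2% of all genes called lower by edgeR (72.5% in either direction), and groups did not overlap for 26 of 31, beside 75.8% of all genes. Icam2 (log2 fold change -0.18), Podxl (-0.34) and Rgs5 (0.00) did not pass. This comparison shares its vehicle libraries with cytokines against vehicle.

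Other genes of the vascular pathways did not move in 1 direction with cytokines. Beside 37.2% of all genes called lower and 35.3% higher, the shares called lower were near the background in 5 of the 6 lists of other pathway genes, all but that of activation and coagulation. Of 27 measured ligands, 11 were called lower (40.7%) and 4 higher (14.8%) by edgeR. The Notch ligand genes Dll4 (7.98 ± 1.09 CPM with vehicle, 1.5 ± 0.45 CPM with cytokines, log2 fold change -2.42) and Jag2 (-1.89) showed the largest falls. Adm, which encodes adrenomedullin, showed the largest rise, from 0.466 ± 0.328 to 11.9 ± 2.46 CPM (4.65), ahead of Bmp6 (1.40). Of 24 receptors and signalling genes, 10 were lower (41.7%) and 5 higher (20.8%), with the endothelin receptor gene Ednra (-1.53) and Notch3 (-1.33), a Notch receptor of mural cells, falling and the semaphorin receptors Nrp2 (1.70) and Plxnd1 (0.77) rising.

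Of 16 further transcription factors of endothelium, 6 were lower (37.5%) and 4 higher (25%), beside 37.2% and 35.3% of all genes. Hhex (-2.76), which is also a δ cell factor in islets, and the Notch target Hey1 (-2.06) fell, while Lmo2 (3.03) and Ets2 (1.08) rose. With cytokines Hhex was at 1.78 ± 0.618 CPM and with the combination at 3.7 ± 0.7 CPM, a rise of 1.07 on the log2 scale (edgeR adjusted p = 0.0292). Of 29 further endothelial genes 12 were lower (41.4%) and 7 higher (24.1%). Gpihbp1, which carries lipoprotein lipase to the capillary lumen, went from 325 counts with vehicle to 2 with cytokines, 0.631% of the vehicle level (0.0761% to 2.3%, 95% interval for counting error only). Cd300lg, a receptor of capillary endothelium, went from 107 counts to 1 (0.958% of the vehicle level, 0.024% to 5.46%). Ly6a (5.37) and Ly6c1 (5.35), interferon-responsive surface antigens of endothelium and leukocytes, rose.

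Of 23 further mural genes, 8 were lower and 8 higher (34.8% each), beside 37.2% and 35.3% of all genes. Kcnj8 (-3.08) and Abcc9 (-2.89), the subunits of the ATP-sensitive potassium channel of pericytes, showed the largest falls, and Gja4 (2.73) and Ndufa4l2 (2.25) the largest rises. Of 16 genes of endothelial activation and coagulation, 3 were lower (18.8%) and 10 higher (62.5%). Tfpi (-1.55) and Thbd (-0.91), which restrain coagulation, fell, and the chemokine genes Cxcl9 (8.21) and Cxcl10 (8.11) rose. These chemokines are also made by other islet cells. In combination against cytokines, 2 of 129 genes of the 6 lists together were called (1.55%), near the 1.43% of all genes. By list, 1 of 16 further transcription factors (6.25%) and 1 of 29 further endothelial genes (3.45%) were called. They were Hhex, higher, and Adgrl4, an endothelial adhesion receptor, lower (-1.05, edgeR adjusted p = 0.0437). No gene was called in the other lists of vascular pathways.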

How the data were processed

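The authors deposited a table of raw read counts by gene symbol, with 12 library columns. Per the labels' protocols the libraries are nonstranded SMARTSeq v4 cDNA. Build mm10 and the tools STAR, featureCounts, Subread, FastQC and DESeq2 are listed in the submitters' processing notes with no version or role, and the annotation is not given in the sources used here. Positions are from GENCODE M21 (GRCm38, the assembly of mm10).

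Groups follow the labelled agent. All 12 libraries entered 1 edgeR 4.0.16 fit (R 4.3.3, robust glmQLFit and glmQLFTest, TMM, filterByExpr, which removed no gene), with Benjamini-Hochberg adjustment over 14089 genes per contrast and a threshold of 0.05. The SE was taken as |log2 fold change| over the root of F. CPM use TMM-scaled totals, and CPM per kb divides by exon length. The test was checked on simulated data in which few genes changed, and only in the cytokine group. That check does not cover data in which most genes change, as here. No replicates matched within sampling noise (lowest chi-square per degree of freedom 4.12).

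The genes and lists were chosen with earlier results of these data known. Genes given in full were, in each role, the 2 largest falls and the smallest change, genes that rose or were called in a contrast of ML351, and the 3 smallest p-values of the interaction. From each of the 6 further lists, the 2 largest falls and rises among called genes with mean log2 CPM of at least 0 were named. Adgrl4 was named after its value was seen. Alternatives were RLE, library-total and upper-quartile scaling, DESeq2 1.42.0, no filter, a CPM of at least 1 in 3 libraries, only the 2 groups of a contrast in the fit, a replicate block, leaving out each library, and, added after seeing the data, leaving out ML351 replicate 1 and cytokine replicate 1 together.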

Additional observations from a re-analysis of the deposited data

How the results depend on the processing

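In these comparisons no called gene changed direction in any alternative run, and calls were kept in all of them for 22 of 31 genes in cytokines against vehicle, 25 of 28 in combination against ML351 and 1 of 6 in combination against cytokines. The genes called in combination against cytokines numbered 2 with library totals and 1 with only the 2 groups in the fit. Leaving out 1 library gave 1 to 6 genes called, of which 1 to 5 were among the 6 reported. Tie1 was added without combination replicate 1, Sox18 without combination replicate 2, Egfl7 without combination replicate 4 and Emcn without cytokine replicate 1. The cause was not tested. Same-numbered libraries did not deviate together more than others (13 pairs, r from -0.377 to 0.202, 2 over 0.1, beside -0.301 to 0.466 for other pairs). The labels do not say what the numbers stand for, and whether same-numbered libraries share an islet preparation was not tested. With the replicate block the counts were 24 in cytokines against vehicle, 26 in combination against ML351 and 2 in combination against cytokines. Of genes never called, Icam2 in combination against ML351 ran from -0.42 to 0.39 when leaving out 1 library, changing sign without ML351 replicate 3 (0.39) and combination replicate 1 (0.01), and Rgs5 from -0.25 (without combination replicate 2) to 0.69. Leaving insulin genes Ins1 and Ins2 out of the totals put mean endothelial sums at 260 CPM with vehicle, 290 with ML351, 64.3 with cytokines and 45 with the combination, and library totals alone put that of ML351 at 204. Against Pecam1 and Cdh5, Podxl moved to 0.51 and Icam2 to 2.24, and Eng was left with almost no move. The fit with only 2 groups has no interaction. Depth limits Ptprb, Sox17, Sox18 and Myl9 with cytokines or the combination, and Emcn, Mmrn2, Nos3, Tek and Vwf with the combination, at 10 or fewer counts in every library of the group. The fit with no filter equals the reported one, since the filter removed no gene.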
